A study of Mus musculus with 2 samples.

Results

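The genes described here are the fibroblast growth factors (FGFs), their receptors and a set of genes that are read as a response to FGF signalling. They were chosen by symbol alone: every gene named Fgf plus a number, Fgfr1 to Fgfr4, Fgfrl1, and the response genes Spry1, Spry2, Spry4, Spred1, Dusp6, Etv4 and Etv5. This rule took 34 of the 28001 features in the data, of which 22 were ligand genes, 5 receptor genes and 7 response genes. They were followed through mouse digit tips that had been regrowing for 14 days after amputation, in 2 single-cell RNA-seq libraries. Both libraries came from mice aged 10 to 12 weeks that carried R26-LSL-TdT, a reporter that makes the red fluorescent protein tdTomato once Cre recombinase has removed a stop cassette. One line was Lmx1bCreERT2;R26-LSL-TdT and the other PdgfraCreERT;R26-LSL-TdT, so that a tamoxifen pulse marked cells, and later their descendants, in which the Lmx1b or the Pdgfra driver was active. Tamoxifen was given at a daily 3 mg over 4 days in both lines, the digits were amputated 10 days later, and the tissue distal to the amputation was collected. There was 1 library per line, the number of animals behind each is not given in the sources used here, and no sort on tdTomato is described. Line, animal and preparation therefore cannot be told apart, no test was made, and every interval below covers counting error only.

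An FGF leaves the cell that makes it, is held by heparan sulphate on cell surfaces and in the matrix, and brings together a pair of receptor molecules on the receiving cell, which switches on the Ras and ERK kinase cascade. Fgf11, Fgf12, Fgf13 and Fgf14 belong to the family by sequence but stay inside the cell, and Fgfrl1 resembles a receptor but lacks the kinase. Etv4 and Etv5 are transcription factors of the ETS family, Dusp6 removes phosphate from ERK, and the Sprouty (Spry1, Spry2, Spry4) and Spred1 proteins damp the cascade. Transcription of these response genes rises with FGF signalling in many tissues, and other receptor tyrosine kinases drive them too. In the limb, FGFs made by the epithelium keep the underlying mesenchyme growing and mesenchymal Fgf10 signals back, while Fgf7 and Fgf10 from dermal cells act on the epithelial form of Fgfr2.

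ETS factors act at the end of the ERK cascade and bind the core GGAA, so the promoters of response genes were searched for it. The promoters of 3 response genes whose levels differed between the classes below are shown, as the 250 bases before the start in the RefSeq table for GRCm38.p6, 5′ to 3′ on the strand of the gene, with each core on either strand (GGAA or TTCC) in capitals. Promoters of 5 of the 7 response genes were in the table. Spry1 had 1 match and Etv5 0 and 4 matches at its 2 starts, and these are not shown. Spry1 differed more between classes (3.46 to 128 CPM in the Lmx1b library) than Spred1 (23.8 to 140.2 CPM), which is shown. The 3 shown are thus a choice and not the genes of widest contrast. They are the promoters of Dusp6 (chr10:99262981-99263230, plus strand, 6 matches), Spry2 (chr14:105896820-105897069, minus strand, 3 matches) and Spred1 (chr2:117120821-117121070, plus strand, 4 matches).
Dusp6: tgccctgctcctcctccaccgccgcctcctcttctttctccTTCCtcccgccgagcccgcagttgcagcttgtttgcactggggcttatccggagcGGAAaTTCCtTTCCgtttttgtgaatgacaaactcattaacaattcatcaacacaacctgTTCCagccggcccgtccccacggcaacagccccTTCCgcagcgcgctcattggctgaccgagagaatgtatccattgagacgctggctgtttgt
Spry2: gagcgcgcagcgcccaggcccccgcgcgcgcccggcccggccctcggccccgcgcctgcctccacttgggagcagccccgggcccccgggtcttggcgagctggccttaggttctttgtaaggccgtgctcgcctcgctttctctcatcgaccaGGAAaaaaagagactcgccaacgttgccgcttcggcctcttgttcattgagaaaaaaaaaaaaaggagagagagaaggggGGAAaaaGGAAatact
Spred1: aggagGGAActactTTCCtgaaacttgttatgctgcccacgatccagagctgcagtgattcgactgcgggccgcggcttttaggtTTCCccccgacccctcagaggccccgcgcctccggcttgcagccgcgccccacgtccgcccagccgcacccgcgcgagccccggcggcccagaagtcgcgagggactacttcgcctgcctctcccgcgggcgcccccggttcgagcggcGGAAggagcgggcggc
The core is short and was found in 94.2% of the 27025 genes with a promoter of this length in the table, with a median of 3.00 matches per promoter. The longer CCGGAA, which contains the core and was also searched on both strands, was found in 13.6% of those genes. It was present in 4 of the 25 members with a promoter in the table, among them 2 of 16 ligands, 2 of 4 receptors and 0 of 5 response genes. A match describes the letters in this window, and no match says only that they are not in it.

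Reads were counted as unique molecular identifiers (UMIs), each standing for 1 captured RNA molecule, and levels are given as CPM, the UMIs of a gene per 1000000 UMIs of all genes, summed over the cells of a class in a library. The libraries held 66867027 UMIs over 5991 barcodes (Lmx1b) and 49084751 UMIs over 5032 barcodes (Pdgfra), and 10 barcodes occurred in both. After filters on gene number, mitochondrial share and doublets, 2744 and 2309 cells were kept, with a median of 17084 and 9774 UMIs. Throughout, the value of the Lmx1b library stands first and that of the Pdgfra library second unless the library is named. Cells were placed in classes by marker lists that hold no member, and a class name stands for that marker gate. The classes were mesenchymal cells (582 and 426 cells), osteoblasts (148 and 55), cartilage (147 and 111), endothelial cells (628 and 368), mural cells, the pericytes and smooth muscle around vessels (255 and 183), macrophages and monocytes (105 and 98), osteoclasts (22 and 34), Schwann cells (31 and 75) and epithelial cells (68 and 54), with 709 and 855 cells in none. The gate picks cells by these markers, so their levels do not test the classes. The markers of each class stood higher in it than in the other classed cells for all of its markers, except that 1 of the 8 osteoclast markers was at 0. The lowest of the others were a cartilage marker at 0.182 CPM in the Lmx1b library and a Schwann marker at 3.02 CPM in the Pdgfra library. Cells gated as cartilage carried Col2a1 (21599 and 18129 CPM), a cartilage collagen, but also more of the bone matrix gene Ibsp (55108 and 53711 CPM) than osteoblasts did (34370.2 and 38403 CPM), so cartilage here names cells that carry both. Epithelial cells differed between libraries, with 5703 and 152 CPM of Krt1 and 13182 and 244 CPM of Krt10, keratins of differentiating epidermis, against 10526 and 5572 CPM of basal Krt14. Genes that rise with tissue dissociation, such as Fos and Egr1, were summed for each class as well: they reached 2527 and 3772 CPM in mesenchymal cells, 3321 and 4267 in endothelial cells, 3837 and 5890.5 in mural cells, 6293 and 3862 in Schwann cells and 956 and 2901 in epithelial cells. They reached 1658 and 2366 CPM in osteoblasts, 2172 and 3862 in cartilage, 4531 and 5384 in macrophages and 2145 and 2483 in osteoclasts. Their part in the levels below was not tested. Free RNA was present: Ibsp had a UMI in 587 of 628 and 343 of 368 endothelial cells, at 232 and 368 CPM. A member that is low in a class and high in others is therefore given as a level, and not read as expression there.

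Of the 22 ligand genes, 9 had at least 30 UMIs over both libraries and are described by class. Fgf7 led with 2409 UMIs, followed by Fgf10 with 1188, Fgf2 with 676, Fgf13 with 569, Fgf1 with 344, Fgf11 with 252, Fgf9 with 162, Fgf18 with 128 and Fgf5 with 40. The other 13 were at or near the detection limit. Fgf6, Fgf20, Fgf22 and Fgf23 had 0 UMIs, Fgf4 had 1, Fgf8 3, Fgf14 and Fgf16 5 each, Fgf3 and Fgf17 6 each, Fgf15 17, Fgf12 18 and Fgf21 25. Fgf8 and Fgf4, the ligands of the embryonic limb's epithelial ridge, were thus nearly undetected at this depth. Of the Fgf21 UMIs, 23 came from the Pdgfra library, where 17 were in 5 mesenchymal cells and 5 in 2 cartilage cells. A single cell held 12 of these 23 UMIs.

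**Figure D1:**
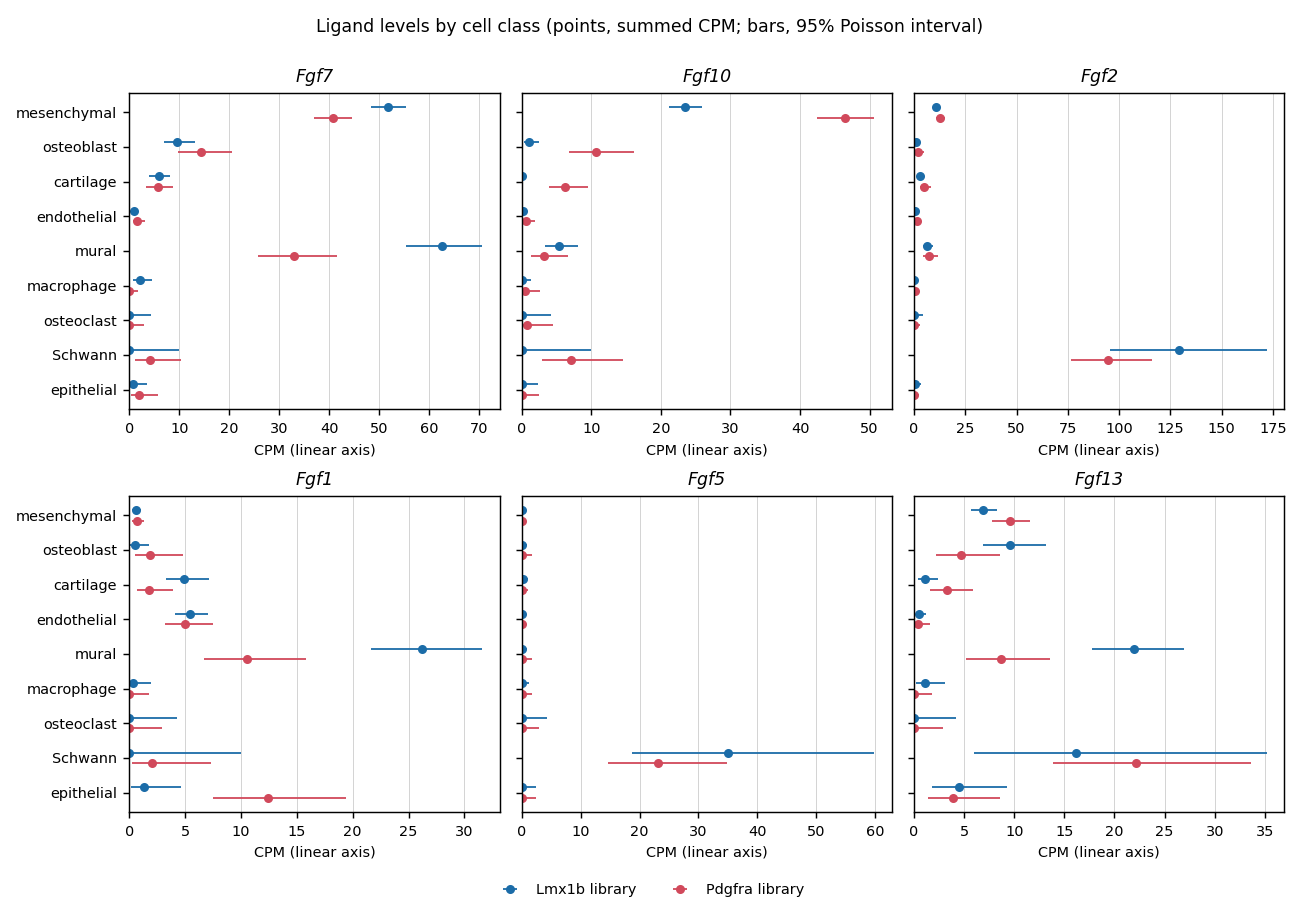
Levels of Fgf7, Fgf10, Fgf2, Fgf1, Fgf5 and Fgf13 by class (rows), in CPM on linear axes that differ between genes, with a point and its 95% Poisson interval for each library (blue, Lmx1b; red, Pdgfra). Fgf7 is highest in mesenchymal and mural cells, Fgf10 in mesenchymal cells and Fgf2 and Fgf5 in Schwann cells.

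Fgf7 (ENSMUSG00000027208, chr2:126034658-126091185, plus strand), a ligand of epithelial Fgfr2, was made by mesenchymal and mural cells. Its level was 51.8 CPM (48.4 to 55.4) and 40.7 CPM (37.0 to 44.6) in mesenchymal cells, and 62.7 CPM (55.5 to 70.7) and 32.9 CPM (25.8 to 41.5) in mural cells. The mural level was the higher one in the Lmx1b library, with intervals that did not overlap, whereas the intervals overlapped in the Pdgfra library. Osteoblasts had 9.62 and 14.4 CPM and cartilage 5.82 and 5.65 CPM. Fgf7 UMIs were found in 53.1% and 46.7% of mesenchymal cells, against 1.43% and 0.815% of endothelial cells, whose median depth was lower (12111 and 8736 against 26564 and 23450.5 UMIs). Thinned to 5000 UMIs per cell, the mesenchymal shares were 20.6% of 569 cells (17.3% to 24.1%) and 20.0% of 360 cells (16.0% to 24.5%), the mural shares were 20.2% of 223 and 17.9% of 140, and the endothelial shares were 0 of 562 and 0.415% of 241. In osteoclasts no Fgf7 UMI was found in either library, which allows up to 3.43 and 2.39 CPM.

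Fgf10 (ENSMUSG00000021732, chr13:118669791-118792115, plus strand) was more restricted to the mesenchymal class, and its level there differed between libraries. It stood at 23.5 CPM (21.2 to 25.9) and at 46.5 CPM (42.5 to 50.7), and was detected in 31.4% and 38.3% of the cells, or 10.7% and 18.1% after thinning. Mural cells had 5.39 and 3.20 CPM. Endothelial cells had a UMI in 0.318% and 0.543% of cells, and epithelial cells had none, which allows up to 1.93 and 1.96 CPM. Osteoblasts had 0.987 and 10.7 CPM, the second from 23 UMIs of which 9 were in 1 cell, and 6.83 CPM without that cell. Cartilage had no UMI (up to 0.546 CPM) and 6.25 CPM, the latter from 21 UMIs in 8 cells, 8 of them in 1 cell.

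Fgf2 (ENSMUSG00000037225, chr3:37348346-37410108, plus strand), a ligand that binds many receptor forms, was highest in Schwann cells. Its level was 129 CPM (95.4 to 172, 48 UMIs) and 94.8 CPM (76.6 to 116, 94 UMIs), and after thinning it was found in 41.4% of 29 and 37.5% of 64 Schwann cells. Mesenchymal cells came next with 10.8 CPM (9.25 to 12.5) and 12.7 CPM (10.7 to 15), followed by mural cells with 6.56 and 7.32 CPM. The Schwann intervals lay apart from those of every other class. Fgf2 UMIs were seen in 64.5% and 60.0% of Schwann cells and in 0.955% and 1.36% of endothelial cells, at median depths of 8525 and 10762 against 12111 and 8736 UMIs. Fgf5, a ligand best known from the hair cycle, was also nearly limited to Schwann cells: there were 13 UMIs in 3 cells (35.0 CPM, 18.7 to 59.9), 6 of them in 1 cell, and 23 UMIs (23.2 CPM, 14.7 to 34.8). Outside Schwann cells, the classed cells of both libraries together held 1 Fgf5 UMI, in cartilage. Schwann cells here had 380.1 and 322 CPM of Cdh19 and 94.4 and 62.5 CPM of the myelin gene Mbp.

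The other ligands were lower and less alike between libraries. Fgf1 was led by mural cells in the Lmx1b library (26.2 CPM, 21.6 to 31.6) and stood at 10.5 CPM (6.67 to 15.8) in mural cells of the Pdgfra library, where epithelial cells had 12.4 CPM (7.49 to 19.4), an overlapping interval. Endothelial cells had 5.38 and 4.99 CPM of Fgf1, and mesenchymal cells 0.542 and 0.632 CPM. Fgf9, a ligand of the mesenchymal receptor forms, was at 2.65 and 6.32 CPM in mesenchymal cells. In the epithelium it was at 0 and at 12.4 CPM, the latter from 19 UMIs in 7 cells of which 9 were in 1 cell, and 7.02 CPM without that cell. Fgf18, a ligand with roles in bone and cartilage, was at 2.35 and 3.52 CPM in mesenchymal cells. The intracellular Fgf13 stood at 22.0 and 8.69 CPM in mural cells and at 16.2 and 22.2 CPM in Schwann cells, and Fgf11 at 4.45 and 5.41 CPM in mesenchymal cells. The class of highest level was the same in both libraries for 5 of the 9 described ligands.

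All 5 receptor genes were described, and the leading class was the same in both libraries for 5 of 5. Fgfr1 was by far the most counted with 20873 UMIs, followed by Fgfr2 with 5465, Fgfr3 with 5338, Fgfrl1 with 4273 and Fgfr4 with 35; since the kit counts the 3′ end, these totals do not rank the genes beyond capture. Fgfr4 was at most 0.903 and 0.902 CPM, in mesenchymal cells.

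**Figure D2:**
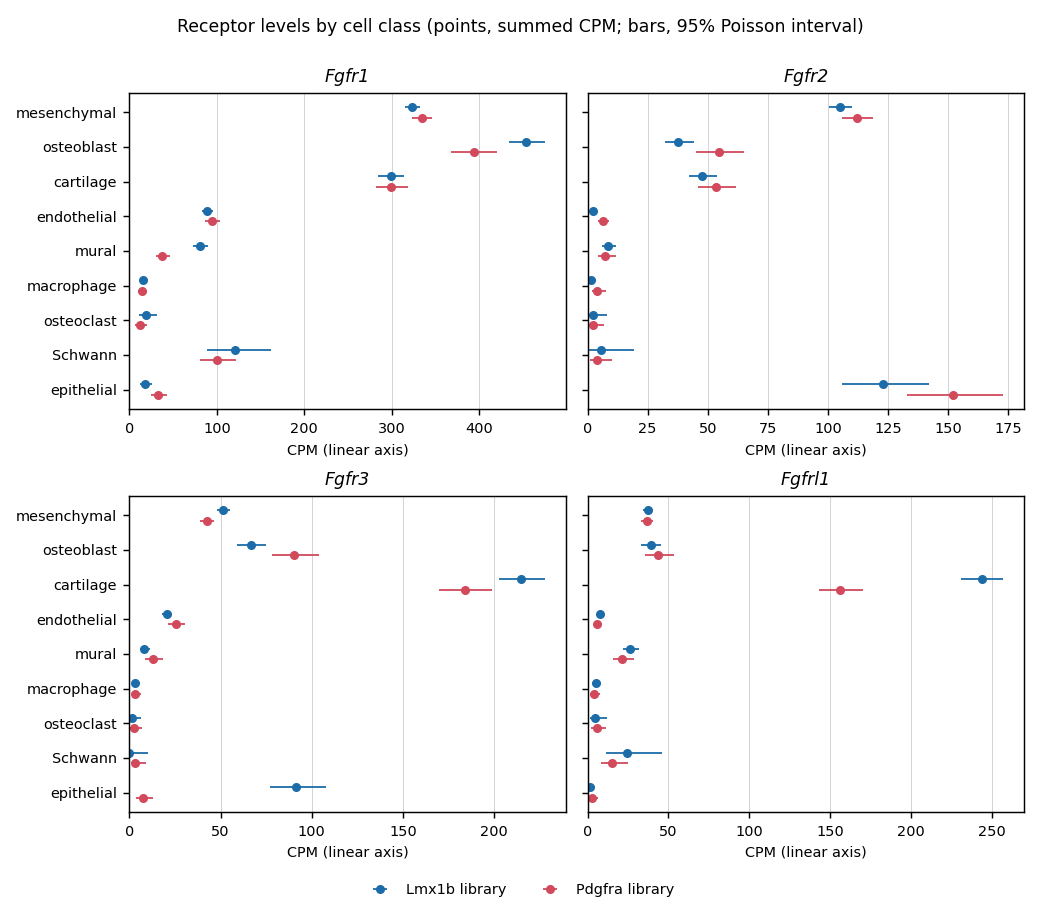
Levels of Fgfr1, Fgfr2, Fgfr3 and Fgfrl1 by class (rows), in CPM on linear axes that differ between genes, with a point and its 95% Poisson interval for each library (blue, Lmx1b; red, Pdgfra). Fgfr1 is highest in the skeletal and mesenchymal classes, Fgfr2 in epithelial and mesenchymal cells, and Fgfr3 and Fgfrl1 in cartilage.

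Fgfr1 (ENSMUSG00000031565, chr8:25513654-25575718, plus strand), the main receptor of mesenchyme, was highest in osteoblasts, with 454 CPM (434 to 476) and 394 CPM (368 to 421). Mesenchymal cells followed with 324 CPM (315 to 333) and 335 CPM (324 to 346), and cartilage with 299 and 299.8 CPM. The level was lower in Schwann cells (121 and 99.8 CPM), in endothelial cells (89.1 and 95 CPM) and in mural cells (80.5 and 37.5 CPM). Macrophages had 15.9 and 13.8 CPM, and osteoclasts 19.4 and 12.0 CPM. An Fgfr1 UMI was found in 97.4% and 90.1% of mesenchymal cells and in 20.0% and 21.4% of macrophages, whose median depths were close (26959 and 21422 UMIs in macrophages). Thinned to 5000 UMIs these shares were 73.8% and 73.3% against 2.00% and 8.70%. Of the macrophage Fgfr1 UMIs, 14 of 45 and 9 of 29 were in 1 cell, and the level was 11.0 and 9.69 CPM without it. The part of free RNA in the macrophage level was not tested.

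Fgfr2 (ENSMUSG00000030849, chr7:130162451-133123350, minus strand) has an epithelial and a mesenchymal splice form that bind different ligands, and 3′ counts do not separate them. Its level was 123 CPM (106 to 142) and 152 CPM (133 to 173) in epithelial cells and 105 CPM (100.3 to 110.2) and 112 CPM (106 to 119) in mesenchymal cells. The intervals of these classes overlapped only in the Lmx1b library. Cartilage had 47.7 and 53.5 CPM and osteoblasts 37.7 and 54.5 CPM, while mural cells had 8.43 and 7.32 CPM, endothelial cells 2.39 and 6.29 CPM and macrophages 1.41 and 3.81 CPM. The gene was thus present in the epithelium, where Fgf7 was 0.643 and 1.96 CPM and Fgf10 had no UMI, and in the mesenchymal cells that held both ligands.

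Fgfr3 (ENSMUSG00000054252, chr5:33721674-33737068, plus strand), which restrains growth plate cartilage, led in the cartilage class with 215 CPM (203 to 228) and 184 CPM (169.9 to 199). Osteoblasts had 66.6 and 90.3 CPM and mesenchymal cells 51.5 and 42.6 CPM. Epithelial Fgfr3 differed between libraries: it was 91.3 CPM (76.9 to 108) with a UMI in 57.4% of cells, against 7.20 CPM (3.59 to 12.9) and 13.0% of cells. Fgfrl1, the kinase-lacking member, was the clearest cartilage gene of the family, with 244 CPM (231 to 257) and 156 CPM (143 to 170.4). No other class passed 43.8 CPM, the level of osteoblasts in the Pdgfra library, and mesenchymal cells were at 37.4 and 36.6 CPM.

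The 7 response genes were all described, and 4 of them led in the same class in both libraries. Spred1 had 5641 UMIs, Spry1 3893, Dusp6 2655, Spry4 1349, Spry2 1122, Etv5 853 and Etv4 585.

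**Figure D3:**
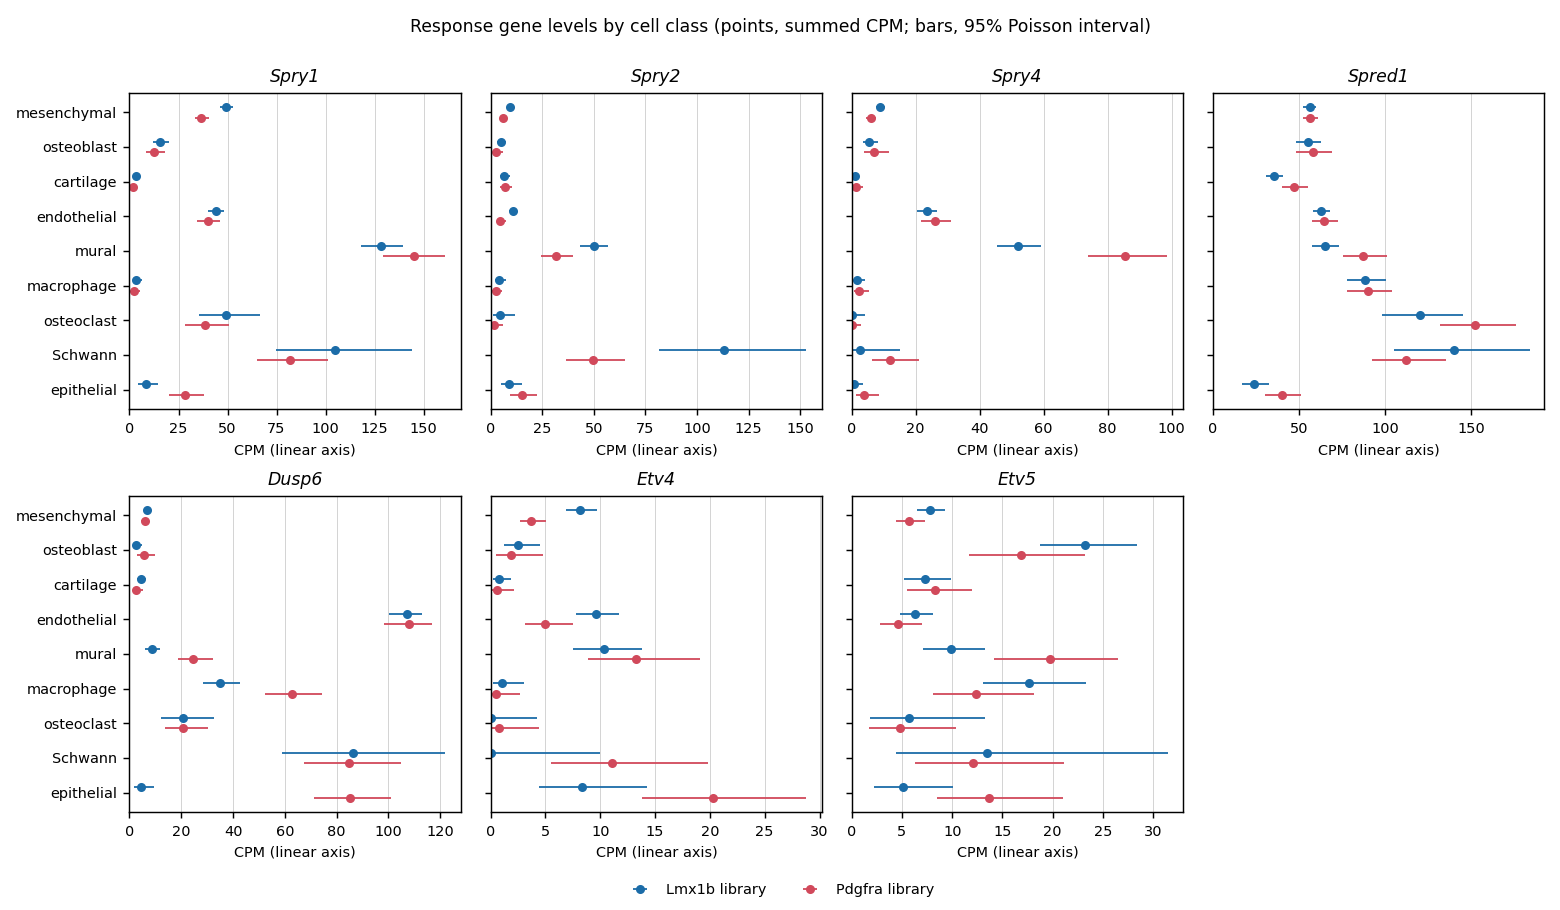
Levels of the 7 response genes by class (rows), in CPM on linear axes that differ between genes, with a point and its 95% Poisson interval for each library (blue, Lmx1b; red, Pdgfra). Spry1 and Spry4 are highest in mural cells, Spry2 in Schwann cells and Dusp6 in endothelial cells, and the mesenchymal, osteoblast and cartilage classes that lead in Fgfr1 are low in Dusp6. The first 2 classes have overlapping intervals for Dusp6 in both libraries, for Spry1 in the Lmx1b library and for Spry2 in the Pdgfra library.

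Mural cells led in Spry1 and Spry4 and Schwann cells in Spry2. Spry1 (ENSMUSG00000037211, chr3:37639947-37644598, plus strand) was at 128 CPM (118 to 139.5) and 145 CPM (129 to 161) in mural cells and at 105 CPM (74.8 to 144) and 81.7 CPM (64.8 to 101) in Schwann cells, with intervals that overlapped in the Lmx1b library alone. Mesenchymal cells had 49.3 and 36.6 CPM of Spry1, endothelial cells 44.0 and 39.9, osteoblasts 15.8 and 12.6, and cartilage 3.46 and 1.78. Spry4 showed mural cells first (52.0 CPM, 45.4 to 59.3, and 85.5 CPM, 73.7 to 98.7) and endothelial cells next (23.4 and 26 CPM), apart from mural cells by their intervals, while Schwann cells had 2.70 and 12.1 CPM. Spry2, whose promoter is printed above, was at 113 CPM (81.6 to 153) and 49.4 CPM (36.5 to 65.3) in Schwann cells. Mural cells had 49.9 CPM (43.4 to 57.0) and 31.6 CPM (24.6 to 39.9) of Spry2, with intervals that overlapped in the Pdgfra library alone. Mesenchymal cells had 9.63 and 6.04 CPM of Spry2 and 8.85 and 5.95 CPM of Spry4.

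Dusp6 (ENSMUSG00000019960, chr10:99263231-99267489, plus strand), the ERK phosphatase, followed another order. Endothelial cells had 107 CPM (100.3 to 113) and 108 CPM (98.3 to 117), with a UMI in 58.3% and 45.9% of cells. Schwann cells had 86.3 CPM (59.0 to 122) and 84.7 CPM (67.5 to 105), which overlapped the endothelial intervals in both libraries. Macrophages had 34.9 and 62.8 CPM and mural cells 8.66 and 24.7 CPM. The classes that led in Fgfr1 were low: mesenchymal cells had 6.80 and 5.95 CPM, osteoblasts 2.71 and 5.59 CPM and cartilage 4.37 and 2.68 CPM. Epithelial cells had 4.50 CPM (1.81 to 9.28) and 85.1 CPM (71.1 to 101). The second value rests in large part on 1 cell, which held 81 of the 130 UMIs, and it was 35.2 CPM without it. That cell had 134357 UMIs and 72.7% of the epithelial markers, and 126 UMIs of the 7 response genes together.

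Spred1 was above 23 CPM in every class. It stood at 140.2 CPM (105 to 184) and 112 CPM (92.1 to 135) in Schwann cells and at 120.1 CPM (98.2 to 145) and 152 CPM (132 to 176) in osteoclasts, with overlapping intervals in each library. The lowest level, in epithelial cells, was 23.8 and 39.9 CPM, and mesenchymal cells had 56.1 and 56.6 CPM. The ETS factors reached at most 23.2 CPM. Etv4 was at 8.36 and 20.3 CPM in epithelial cells, 10.3 and 13.3 CPM in mural cells, 9.57 and 4.99 CPM in endothelial cells and 8.18 and 3.70 CPM in mesenchymal cells. Etv5 was at 23.2 and 16.8 CPM in osteoblasts, 17.6 and 12.4 CPM in macrophages and 9.83 and 19.7 CPM in mural cells.

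Summed by role, the receptors were high in other classes than the response genes, while Schwann and mural cells were high in both ligands and response genes. The 18 secreted ligands summed to 91.9 and 112 CPM in mesenchymal cells, 105 and 54.4 CPM in mural cells and 164 and 131 CPM in Schwann cells. The 4 signalling receptors summed to 481 and 491 CPM in mesenchymal cells, 559 and 539 CPM in osteoblasts and 562 and 538 CPM in cartilage, but to 97.2 and 57.6 CPM in mural cells and 127 and 107 CPM in Schwann cells. The response sums followed another order. They were 461 and 363 CPM in Schwann cells, 324 and 407 CPM in mural cells and 263 and 252 CPM in endothelial cells, against 147 and 121 CPM in mesenchymal cells, 109.8 and 105 CPM in osteoblasts and 59.0 and 69.0 CPM in cartilage. Epithelial cells had 232 and 192 CPM of receptors and 59.8 and 206 CPM of response genes, the latter 136 CPM without the cell named above. Macrophages and osteoclasts had receptor sums of 20.1 and 20.5 CPM and of 22.9 and 16.8 CPM, and response sums of 152 and 173 CPM and of 200.2 and 219 CPM, mostly Spred1. These sums join genes captured with different efficiency, so they compare classes and not roles.

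**Figure D4:**
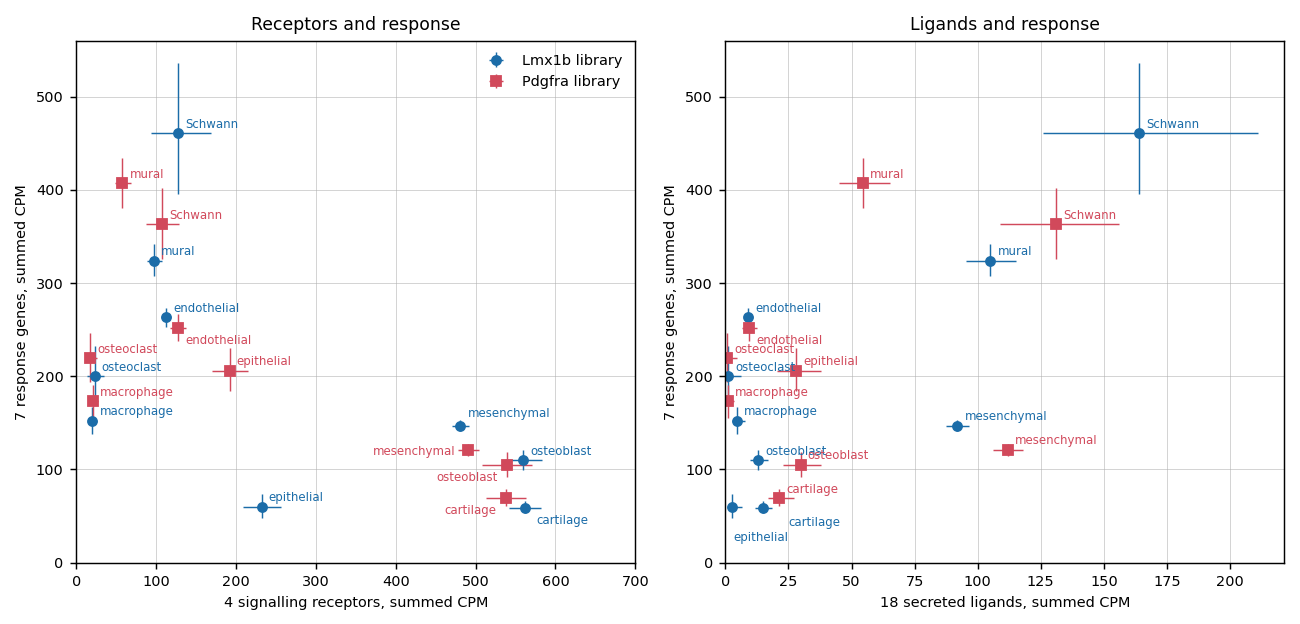
Summed CPM of the 7 response genes (y axes) against that of the 4 signalling receptors (left) and of the 18 secreted ligands (right), 1 point per class and library with 95% Poisson intervals (blue circles, Lmx1b; red squares, Pdgfra). Mesenchymal, osteoblast and cartilage cells have receptor sums of 481 to 562 CPM and response sums of at most 147 CPM, while Schwann, mural and endothelial cells have receptor sums of at most 127 CPM and response sums of at least 252 CPM.

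Each class was then set against all other classed cells of its library, for features with at least 5 CPM over both sides, and a feature past 2-fold was counted. These comparisons share cells, so they are not independent of one another. A feature could pass the filter through 1 side alone, as Fgf10 did in mesenchymal, Fgf1 in mural and Fgf5 in Schwann cells. Such a feature could not be called lower in that class. In mesenchymal cells, 4 of 15 tested members were higher and 1 lower in the Lmx1b library, and 5 of 14 higher and 2 lower in the Pdgfra library, where 7.54% and 11.2% of all features, and 7.17% and 11.8%, were higher and lower. The median log2 difference of the tested members was 0.31 against -0.04 for all features, and -0.08 against -0.12. Past 2-fold in both libraries were Fgf7, 4.37-fold (3.86 to 4.96) and 5.59-fold (4.61 to 6.82) higher, Fgf10, 24.3-fold (16.7 to 36.8) and 13.6-fold (10.4 to 17.9) higher, and Fgfr2, 4.69-fold (4.29 to 5.13) and 3.55-fold (3.21 to 3.92) higher. Dusp6 was 6.38-fold and 8.66-fold lower.

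Osteoblasts and cartilage came next. Among osteoblasts, 2 of 13 tested members were higher and 6 lower in the Lmx1b library (background 2.96% and 27.3%), and 0 of 14 higher and 4 lower in the Pdgfra library (3.13% and 19.8%), with medians of -0.49 against -0.60 and -0.39 against -0.45. Spry1 was 2.88-fold and 3.15-fold lower in osteoblasts and Dusp6 12.2-fold and 6.59-fold lower, and Spry2 was also lower in both. In cartilage, 2 members were higher and 5 lower in each library, of 12 and 13 tested (background 4.58% and 30.4%, and 4.66% and 23.3%), with medians of -0.86 against -0.63 and -0.53 against -0.51. The higher members were Fgfr3 (5.84-fold and 5.82-fold) and Fgfrl1 (10.1-fold and 6.77-fold), and the lower ones Fgf7, Fgf10, Spry1 (13.9-fold and 23.7-fold), Spry4 (16.9-fold and 10.5-fold) and Dusp6 (7.74-fold and 14.4-fold).

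Endothelial and mural cells shared low Fgfr1 and high Spry4. For endothelial cells, 2 of 13 tested members were higher and 6 lower in the Lmx1b library (background 14.1% and 14.0%) and 2 of 13 higher and 7 lower in the Pdgfra library (12.9% and 14.0%), with medians of -0.63 against 0.24 and -1.04 against 0.20. Dusp6 was 11.2-fold (9.93 to 12.7) and 5.08-fold (4.48 to 5.75) higher and Spry4 2.13-fold and 2.21-fold higher, while Fgfr1 was 2.87-fold and 2.47-fold lower, Fgfr2 27.3-fold and 11.4-fold lower and Fgfrl1 8.26-fold and 7.25-fold lower. For mural cells, 6 of 16 tested members were higher and 4 lower in each library (background 8.68% and 12.5%, and 7.74% and 13.1%), with medians of 0.14 against 0.04 and 0.48 against -0.00. Higher in both were Fgf1 (11.7-fold, 8.83 to 15.6, and 4.76-fold, 2.81 to 7.80), Spry1 (3.74-fold and 4.95-fold), Spry2 (5.31-fold and 4.40-fold) and Spry4 (5.29-fold and 10.3-fold). Lower in both were Fgfr1 (2.91-fold and 6.04-fold), Fgfr2 (6.68-fold and 9.01-fold) and Fgfr3 (7.90-fold and 4.04-fold).

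In Schwann cells, Fgf2, Spry2 and Dusp6 were among the members past 2-fold upward. Of 14 and 16 tested members, 7 were higher in each library and 5 and 6 lower (background 17.8% and 15.4%, and 13.8% and 13.1%), with medians of 0.87 against 0.23 and 0.62 against 0.24. Fgf2 was 25.6-fold (18.4 to 35.1) and 14.7-fold (11.4 to 19) higher, Fgf13 2.78-fold and 4.09-fold, Spry1 2.48-fold and 2.26-fold, Spry2 9.21-fold and 6.52-fold and Dusp6 2.88-fold and 2.58-fold higher. Fgf5 was counted among the 7 in each library, but it passed the filter through its Schwann level alone and could only be called higher. In the Lmx1b library it rested on 13 UMIs in 3 cells. Fgf7, Fgfr2, Fgfr3 and Fgfrl1 were lower in both.

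In macrophages, osteoclasts and epithelial cells the shares of members higher than the rest were mostly at or under the share of all features. Macrophages had 0 of 11 tested members higher and 8 lower in the Lmx1b library (background 13.0% and 21.1%) and 0 of 13 higher and 10 lower in the Pdgfra library (12.1% and 23.0%), with medians of -3.18 against -0.05 and -3.12 against -0.15. Fgfr1 was 14.7-fold and 16.5-fold lower in them and Spry1 12.9-fold and 17.0-fold lower. In osteoclasts, 1 of 11 and 1 of 12 tested members was higher, Spred1 at 2.10-fold and 2.45-fold, and 7 and 8 were lower (background 14.1% and 27.9%, and 13.9% and 27.3%), with medians of -3.22 against -0.14 and -3.09 against -0.12. Epithelial cells had 1 of 13 higher and 7 lower in the Lmx1b library (background 12.1% and 27.3%) and 5 of 16 higher and 6 lower in the Pdgfra library (12.2% and 23.0%), with medians of -1.29 against -0.16 and -0.48 against -0.04. Dusp6 was among the 5, but not past 2-fold without the cell that held 81 of its 130 UMIs. Fgfr2 was 2.48-fold and 2.68-fold higher in the epithelium in both libraries, and Fgfr1 12.6-fold and 6.80-fold lower.

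Within the mesenchymal class, cells were split by short marker lists into subsets, and each subset was set against the other mesenchymal cells. The nail mesenchyme subset held 32 and 88 cells and had more ligand. Its Fgf2 was 44.8 CPM against 9.29 CPM, a 4.82-fold difference (3.16 to 7.14), and 33.0 against 9.28 CPM, 3.56-fold (2.48 to 5.06). Fgf7 was 103 against 49.6 CPM (2.07-fold, 1.60 to 2.64) and 79.8 against 34.1 CPM (2.34-fold, 1.89 to 2.88), and Fgf18 8.68 against 2.07 CPM and 13.1 against 1.90 CPM. Fgf10 was 59.3 against 21.9 CPM in the first library and 61.7 CPM in the subset of the second, where the difference was under 2-fold. In each library 4 members were higher and 0 lower, of 15 and 16 tested, with background shares of 10.0% and 7.93%, and of 8.60% and 5.75%. Fgf18 was counted among the 4 in each library, but it passed the filter through the nail subset alone and could only be called higher. The medians were 0.27 against 0.11 and 0.55 against 0.09. Dissociation genes were also higher in the nail subset than over all mesenchymal cells (4233 against 2527 CPM and 8176 against 3772 CPM), and their part was not tested.

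**Figure D5:**
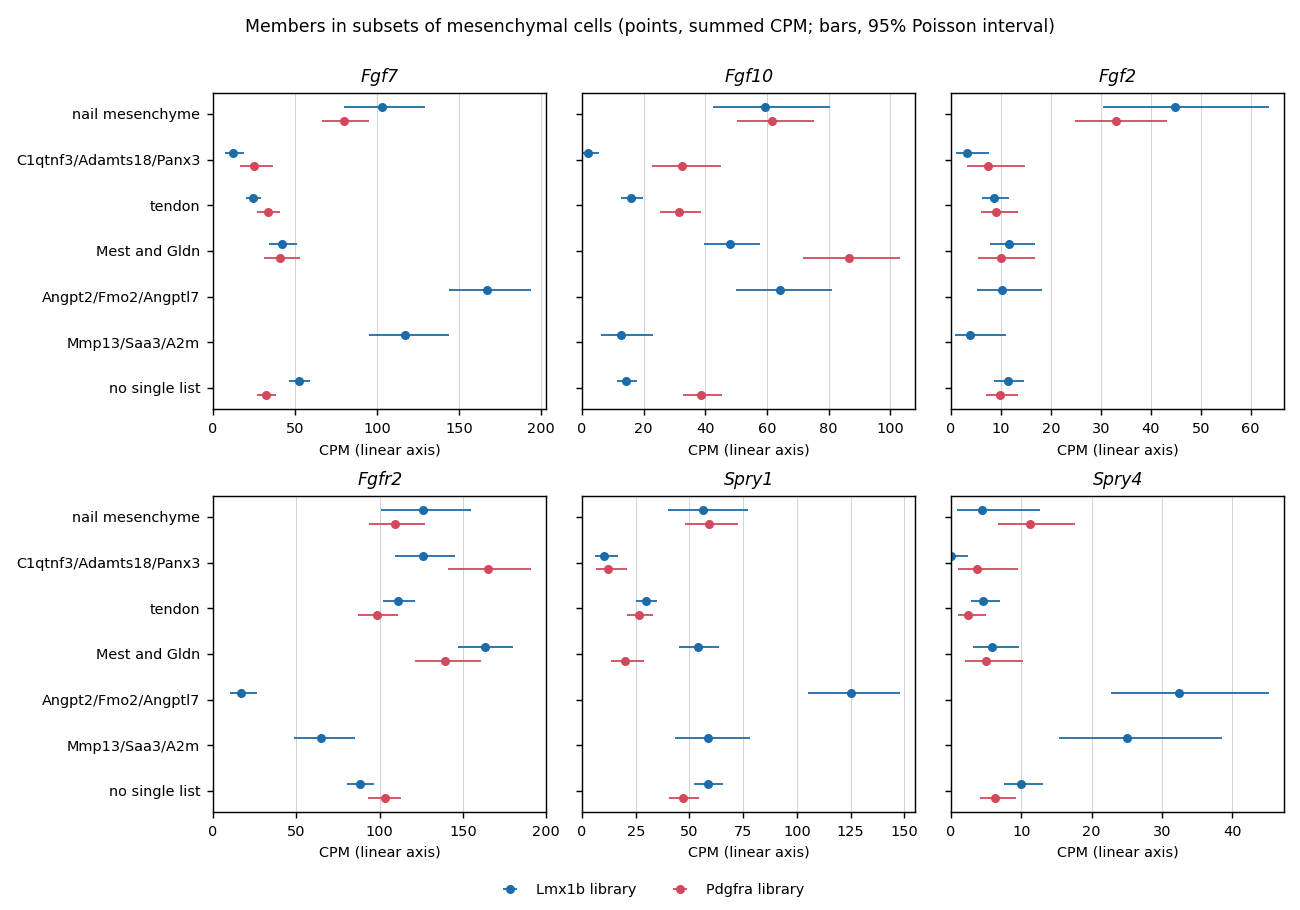
Levels of Fgf7, Fgf10, Fgf2, Fgfr2, Spry1 and Spry4 in subsets of the mesenchymal class with at least 20 cells (rows), in CPM on linear axes that differ between genes, with a point and its 95% Poisson interval for each library (blue, Lmx1b; red, Pdgfra). Fgf2 is highest in the nail mesenchyme subset in both libraries, and Fgf10 of the Pdgfra library in the subset marked by Mest and Gldn.

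Fgf10 was spread differently from Fgf7. The subset marked by Mest and Gldn (76 and 48 cells) had 48.0 CPM of Fgf10 against 19.3 CPM (2.49-fold, 1.99 to 3.10) and 86.6 against 40.7 CPM (2.13-fold, 1.72 to 2.62), and Fgf10 was the only member of 16 tested that was higher there, in each library. Lower in it were Dusp6, Etv4 and Etv5 in the first library and 0 members in the second (background 0.851% and 2.74%, and 0.929% and 2.99%). The subset marked by C1qtnf3, Adamts18 and Panx3 (42 and 21 cells), which carried 16159.6 and 15647 CPM of osteoblast markers against 2493 and 2419.8 CPM over all mesenchymal cells, had little Spry1, at 10.3 against 53.4 CPM and 12.1 against 39.3 CPM. In the Lmx1b library it also had less Fgf7 (12.3 against 55.9 CPM) and Fgf10 (1.94 against 25.7 CPM) and more Fgfr3 (102 against 46.3 CPM). There, 1 of 13 tested members was higher and 6 lower (background 2.04% and 10.2%), and in the Pdgfra library 0 of 12 were higher and 1 lower (2.65% and 8.40%).

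The remaining subsets were less alike between libraries. Tendon cells (155 and 81 cells) had less Fgf7 in the Lmx1b library, 24.4 against 62.9 CPM, and more Fgf9 in the Pdgfra library, 12.2 against 4.26 CPM; 0 of 15 members were higher and 3 lower in the first (background 0.513% and 3.72%), and 1 of 15 higher and 0 lower in the second (0.273% and 2.26%). That Fgf9 passed the filter through the tendon cells alone and could only be called higher. A subset marked by Angpt2, Fmo2 and Angptl7 had 52 cells and, in the Pdgfra library, 7, too few to describe. Where it was described, it had 167 CPM of Fgf7 against 43.8, 64.1 CPM of Fgf10 against 20.7, 125 CPM of Spry1 against 44.1, 28.8 CPM of Spry2 against 8.30 and 32.5 CPM of Spry4 against 7.21, but 16.7 CPM of Fgfr2 against 111. These differences were part of 7 members higher and 1 lower of 17 tested (background 9.74% and 6.52%, medians 0.50 against 0.09). Mural markers summed to 1783 CPM in this subset, against 813 CPM over all mesenchymal and 31166 CPM over mural cells, and dissociation genes to 7142 CPM; the part of either was not tested. The subset marked by Mmp13, Saa3 and A2m (23 cells in the Lmx1b library) had 117 CPM of Fgf7 against 48.5 and 25 CPM of Spry4 against 8.03, with 2 of 15 members higher and 1 lower (background 7.27% and 4.70%). Dissociation genes summed to 4228 CPM in it, and Schwann markers to 199 CPM against 52.1 CPM over all mesenchymal cells, and their part was not tested.

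Mesenchymal cells with at least 1600 CPM of tdTomato were taken as labelled. In the Lmx1b library, 59 labelled cells had 26.4 CPM of Fgf2 against 9.29 CPM in 523 unlabelled cells (2.84-fold, 1.93 to 4.09) and 45.8 against 21.3 CPM of Fgf10 (2.14-fold, 1.62 to 2.80), and less Etv4 (2.08 against 8.76 CPM) and Etv5 (2.78 against 8.30 CPM), which rested on 3 and 4 UMIs of the labelled cells. With 1 tdTomato UMI as the threshold, the directions of Fgf10, Etv4 and Etv5 turned, and Fgf2 was not past 2-fold. With 2 of 16 members higher and 2 lower (background 3.98% and 3.44%, medians 0.15 against 0.04), this was set beside the subsets: 20 of the 59 labelled cells were in the nail subset, which itself had more Fgf2 and Fgf10, and nail markers summed to 5275 CPM in labelled cells against 372 CPM in the rest. The Pdgfra library had 379 labelled mesenchymal cells and 47 unlabelled ones, the latter with a median of 2252 UMIs against 25098. Its 2 higher members of 13 tested, Fgf10 and Spry1, rested on 5 and 4 UMIs of the unlabelled cells, and 1 member was lower (background 8.64% and 6.06%). Cells with at least 2 UMIs of 6 cell cycle genes (80 and 47 mesenchymal cells) had 0 of 15 members past 2-fold in the Lmx1b library (background 3.90% and 1.63%), and in the Pdgfra library 0 of 13 higher and 1 lower, Fgf2 at 6.04 against 14.3 CPM (background 2.70% and 1.93%). Fgf10 in these cells was 0.524 times (0.374 to 0.718) and 0.579 times (0.437 to 0.755) the level of the other mesenchymal cells, short of 2-fold. With at least 4 UMIs of these genes as the threshold, 4 members were lower in each library.

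Mural cells were split, after their levels had been seen, into those with more of the smooth muscle genes Myh11, Acta2 and Lmod1 (139 and 78 cells) and those with more of the pericyte genes Kcnj8, Abcc9 and Higd1b present (34 and 22 cells), leaving out 82 and 83 cells with an equal number of each. Fgf7 was 76.2 CPM in the smooth muscle side against 36.8 CPM in the pericyte side (2.07-fold, 1.30 to 3.48), and 41.2 against 4.74 CPM, the last from 1 UMI. Fgfr1 was likewise higher on the smooth muscle side, at 103 against 47.8 CPM and 58.7 against 14.2 CPM, the last from 3 UMIs. Spry4 had the opposite direction, 32.9 against 69.9 CPM and 54.9 against 133 CPM, and Spry1 was 89.2 against 169 CPM and 129 against 171 CPM. Dusp6 (5.20 against 18.4 CPM) and Etv4 (3.90 against 22.1 CPM) were lower on the smooth muscle side in the Lmx1b library, but were 21.2 against 19 CPM and 11.2 against 9.48 CPM in the other. Of 15 and 14 tested members, 4 and 2 were higher and 5 and 2 lower (background 7.99% and 9.65%, and 9.85% and 12.9%).

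Detection of a receptor and of response genes in the same cell was compared after thinning each cell to 5000 UMIs. Mesenchymal cells with an Fgfr1 UMI had 0.864 response UMIs per cell against 0.631 in those without, a ratio of 1.37 (1.09 to 1.74), and 0.784 against 0.521, a ratio of 1.51 (1.10 to 2.09). For Fgfr2 the ratio was 0.767 (0.626 to 0.937) in one library and 1.33 (1.03 to 1.71) in the other, and at 10000 UMIs per cell 0.603 and 0.981, so no direction held. For Fgfr1 the ratio was 0.745 (0.582 to 0.946) and 0.777 (0.520 to 1.13) in mural cells and 1.09 (0.941 to 1.27) and 0.752 (0.566 to 0.988) in endothelial cells. At 10000 UMIs it was 0.672 and 0.872 in mural cells. In endothelial cells it was 1.11 (0.978 to 1.26) and 1.12 (0.915 to 1.37) at that depth, so no direction held there. In cartilage of the Lmx1b library it was 2.72 (1.14 to 7.87) at 5000 UMIs, with 6 response UMIs in the cells without Fgfr1. The ligand Fgf2 gave 1.54 and 1.67 in mesenchymal cells at this depth, and 0.926 and 1.07 at 10000 UMIs. Of mesenchymal cells with an Fgf7 UMI, 18.8% and 27.8% also had one of Fgf10, against 10.7% and 18.1% of all mesenchymal cells at this depth.

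The libraries were compared within each class, which sets line, animal, preparation and depth side by side without telling them apart. In mesenchymal cells 0 of 15 tested members were called past 2-fold (background 1.09% higher and 0.789% lower in the Lmx1b library). Mesenchymal Etv4 (8.18 CPM, 6.87 to 9.68, and 3.70 CPM, 2.65 to 5.02) and Fgf10 (23.5 and 46.5 CPM) were close to that call. Etv4 was past 2-fold before the pseudocount of 1 CPM was added, and the intervals of neither gene overlapped. Called past 2-fold were also 0 of 8 in cartilage (0.649% and 3.89%), 0 of 4 in macrophages (3.27% and 0.932%) and 0 of 6 in osteoclasts (4.82% and 4.88%). Mural cells of the Lmx1b library had more Fgf1 (2.49-fold, 1.58 to 4.09), Fgf13 (2.53-fold) and Fgfr1 (2.15-fold, 1.68 to 2.77) and 0.351 times the Dusp6, that is 3 of 15 members higher and 1 lower (background 3.63% and 1.97%). Cartilage markers in mural cells summed to 438 and 151 CPM, with Acan at 373 and 56.3 CPM, and their part was not tested. Endothelial cells had 1 of 11 higher, Spry2 at 2.24-fold (1.40 to 3.72), and 0 lower (background 0.503% and 0.885%). Osteoblasts had 0 of 11 higher and 1 lower, Fgf10 at 0.0922 times (background 0.739% and 4.48%), which went to 0.747 and 6.83 CPM, under the 5 CPM filter, once the cell with most of its UMIs on either side was left out. The osteoblast classes also differed in Bglap, a gene of mature osteoblasts (26337 and 3718 CPM), whose part was not tested. Schwann cells had more Spry2 (2.29-fold, 1.48 to 3.53) and less Spry4 and Etv4, 1 of 12 higher and 2 lower (background 6.59% and 8.35%). The Spry4 and Etv4 differences rested on 12 and 11 UMIs of the Pdgfra library and were under the filter without the top cells.

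Epithelial cells differed the most between libraries. Of 11 tested members, 1 was higher in the Lmx1b library, Fgfr3 at 12.7-fold (6.88 to 26), and 6 were lower: Fgf1, Fgf9, Spry1 (0.297 times), Dusp6 (0.0529 times, 0.0209 to 0.112), Etv4 (0.412 times) and Etv5 (0.374 times). The background shares were 5.87% and 12.8%. Without the cell with most UMIs of the gene on either side, Etv4 was no longer past 2-fold (7.89 and 15.2 CPM), Fgf9 was under the filter, and Dusp6 was at 4.02 and 35.2 CPM, from 4.50 and 85.1 CPM. Differentiation keratins and dissociation genes moved with these differences (Krt1 5703 and 152 CPM, Fos 16.7 and 859 CPM, Egr1 16.1 and 175 CPM), and their part was not tested.

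Other genes of the pathway came from 4 lists. Among the 10 co-receptors and binding proteins, Schwann cells had 4 of 7 tested genes higher and 1 lower, and 5 higher and 1 lower, where 17.8% and 13.8% of all features were higher and 15.4% and 13.1% lower, among them Flrt3 (67.4 against 3.33 CPM and 54.4 against 5.63 CPM), which binds FGF receptors, and Cdh2 (302 against 51.1 CPM and 344 against 42.2 CPM). Mesenchymal cells had more Ncam1, an adhesion molecule that can bind Fgfr1 (91.2 against 29.5 CPM and 97.9 against 34.4 CPM). Endothelial cells had more Il17rd, an inhibitor of FGF signalling also called Sef (22.0 against 2.76 CPM and 22.8 against 4.13 CPM), and epithelial cells had Fgfbp1, a carrier that frees FGFs from the matrix (292 against 0.177 CPM and 19 against 0.177 CPM). Ncam1, Il17rd and Fgfbp1 are single genes of this list, and the list is not counted here for their classes.

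Of the 18 heparan sulphate genes, 16 were tested in mesenchymal cells of the Lmx1b library, where 4 were higher and 0 lower, and 5 were higher and 0 lower in the Pdgfra library (all features 7.54% and 7.17% higher, 11.2% and 11.8% lower). They included the core protein Sdc2 (324 against 97.9 CPM and 312 against 103 CPM) and Sulf1, an enzyme that trims sulphate from the chains (138 against 31.8 CPM and 108 against 36.4 CPM). In endothelial cells 2 and 1 of these genes were higher and 10 in each library lower (all features 14.1% and 12.9% higher, 14.0% lower in each), with the matrix proteoglycan Hspg2 among the higher ones (1009.5 against 359 CPM and 816 against 286 CPM). Of the 18 adaptor and ERK cascade genes, 17 were tested. In Schwann cells 4 were higher and 1 lower in each library, not far from the shares of all features given above, with the adaptor Gab1 at 105 against 19.9 CPM and 83.7 against 19.2 CPM, and in endothelial cells 5 and 4 were higher and 1 and 0 lower, beside the endothelial shares just given. Of the 8 other ERK feedback genes, 3 of 6 tested were higher and 0 lower in mural cells of each library (all features 8.68% and 7.74% higher, 12.5% and 13.1% lower), with Etv1 at 31.8 against 8.63 CPM and 44.4 against 8.45 CPM and Phlda1 at 257 against 69.3 CPM and 421 against 69.7 CPM. Phlda1 was lower in mesenchymal cells (42.7 against 111 CPM and 27.8 against 136 CPM), where 11.2% and 11.8% of all features were lower. It is 1 of the 8 feedback genes, and the others are not given for that class.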

How the data were processed

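Single cells were dissociated with Liberase (280 µg/ml, 37 °C, 1 to 4 h, 20 µm strainer) and run on the Chromium 3′ kit, per the labels' protocols. The deposited matrices hold unnormalised counts of UMIs for every gene in every barcode. The file headers name Cell Ranger 4.0.0 as their source. Reads were aligned to mm10 with tdTomato added, per the labels' protocols, and the rule that kept barcodes as cells is not given in the sources used here. The members and lists were chosen with earlier results of these data known.

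Cells with under 500 genes or over 10% mitochondrial UMIs were removed (3198 and 2658 barcodes). Scrublet's own threshold called 0 doublets, so the barcodes of highest score were removed at 0.8% per 1000 barcodes (287 and 203, of which 49 and 65 had passed the filters). A marker was present in a cell when it had a UMI and its share of the cell's UMIs reached that marker's share over all kept cells of the library. A class needed at least 50% of its markers present and at most 40% in any other of 13 lineages; osteoblasts and cartilage were split from the mesenchymal lineage. The marker Cnmd was not matched. Classes needed 20 cells. UMIs were summed per class and library and given as CPM with exact 95% Poisson intervals, shares with Clopper-Pearson intervals, and folds with exact intervals of a ratio of counts. No fold is given where a side had 3 UMIs or fewer, and 3 counts is the limit that a count of 0 allows. PCR copies were collapsed by UMI, and intervals cover counting error only. Calls used features of at least 5 CPM over both sides, a pseudocount of 1 CPM and 2-fold, on the log2(CPM + 1) scale for log2 differences. The code for the fold calls was run on simulated Poisson counts with set changes, which hold no variation between cells or animals. Members with at least 30 UMIs over both libraries were described by class, and those past 2-fold the same way in both libraries were named in class comparisons. Shares were also computed after thinning each cell to 5000 UMIs. Gene positions are those of the GRCm38 annotation, in which all 34 identifiers were found. Tools were Python 3.11.15, numpy 2.4.6, scipy 1.17.1, pandas 2.3.3 and scanpy 1.11.5. Alternatives covered other cell filters, no doublet removal, clusters in place of the gate, other thresholds and depths, and leaving out the top cell. The mural split, the 5000 UMI minimum and leaving out top cells in the comparison of libraries were chosen after seeing the data.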

Additional observations from a re-analysis of the deposited data

Results flagged for a closer look

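Dusp6 in the epithelium had opposite directions in the 2 libraries. Against the other classed cells, Dusp6 had a log2 difference of -2.55 (Lmx1b library) and of 1.39 (Pdgfra library), and whether these differ was not tested. In the Pdgfra library 81 of the 130 UMIs were in 1 cell, and the log2 difference was 0.14 without it. Epithelial Krt1 was at 5703 and 152 CPM, Krt10 at 13182 and 244 CPM and Fos at 16.7 and 859 CPM, and their part in the difference was not tested.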

How the results depend on the processing

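Of the 42 leading classes (21 members in each library), 42 were as reported without doublet removal, 38 with clusters in place of the marker gate, 40 at 200 genes and 25% mitochondrial UMIs and 24 at 1000 genes and 5%; of the 60 pairs of member and class past 2-fold in both libraries, 60, 48, 56 and 30 were. The strictest filter left 12 pairs higher (from 19) and 21 lower (from 41), and no filter on low values gave 70 lower. Several classes held under 20 cells at the strictest filter. In the classes left, 13 levels of leading classes lay outside their reported interval and 15 within it. Of the log2 differences left, 9 were no longer called and 68 were. A gate with 1 more marker kept 41 of the 42 leading classes and 49 of the 60 pairs. It left 79 and 31 osteoblasts, 43 and 30 epithelial cells, and 17 osteoclasts in the Lmx1b library, under the 20 cells needed. In the gate used here, 69 of 148 and 24 of 55 osteoblasts passed by less than 1 marker. So did 25 of 68 and 24 of 54 epithelial cells. Cells of at least 5000 UMIs kept 42 leading classes and 51 pairs. The mean of each cell's CPM, which gives every cell equal weight, took Dusp6 in the epithelium of the Pdgfra library to a log2 difference of -0.05 (from 1.39). It also gave 1 member higher and 3 lower in labelled mesenchymal cells of that library (from 2 and 1), Etv4 at 0.07 there, and 1 and 2 members lower in cycling cells (from 0 and 1). The labelled comparison rested on the tdTomato threshold. At 800 CPM it gave 1 higher and 1 lower in the Lmx1b library (from 2 and 2) and 3 lower in the Pdgfra library. At 3200 CPM it gave 1 and 0 lower, with Etv4 at 0.19 in the latter. With 1 tdTomato UMI as the threshold it gave 0 lower in the Lmx1b library, and 1 higher and 6 lower in the Pdgfra library. Etv4 was then at 0.32 and 2.24, Etv5 at 0.02 and Fgf10 at -0.06 (Lmx1b library) and Spry1 at -0.15 (Pdgfra library). With at least 4 UMIs of cell cycle genes, 4 members were lower in each library. Leaving out the cell with most UMIs of the gene on either side left 5 of the 10 member and class pairs lower in the Lmx1b library, with 4 of the others then under the 5 CPM filter. Thinned to 10000 UMIs, the response ratio in mesenchymal cells was 1.80 and 2.84 for Fgfr1 and 0.603 and 0.981 for Fgfr2. In endothelial cells the ratio for Fgfr1 was then 1.11 and 1.12, from 1.09 and 0.752 at 5000 UMIs. The cause of these changes was not tested. The labelled comparison of the Pdgfra library gave no value at 5000 UMIs or more, for want of unlabelled cells. No paired analysis was possible because each line has 1 library. Schwann cells and osteoclasts (22 to 75 cells) set the widest intervals, and ligands under 30 UMIs could not be placed in a class at this depth.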

Other observations

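Cells that no marker gate took made up 25.8% and 37.0% of the kept cells and were shallow, with median depths of 4191 and 2094 UMIs. Their summed levels were 35.9 CPM (32.3 to 39.8) and 26.5 CPM (23.3 to 30.1) for Fgf7, 6.35 and 13.8 CPM for Fgf10, 219 and 224 CPM for Fgfr1, 43.5 and 36.2 CPM for Spry1 and 8.84 and 13.1 CPM for Dusp6. For Fgf7, Fgf10 and Fgfr1 these values lie between those of mesenchymal and endothelial cells.

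Proteoglycans that hold FGFs at the cell surface also differed in the skeletal classes, and an ERK phosphatase gene differed in myeloid cells. Gpc1 was 2.54-fold and 3.01-fold higher in osteoblasts than in the other classed cells and 2.31-fold and 2.28-fold higher in cartilage, and Sdc3 was 2.67-fold and 2.84-fold and 3.52-fold and 3.82-fold higher in the same classes. Sdc4 was past 2-fold in cartilage (3.37-fold and 4.30-fold). The ERK phosphatase gene Dusp4 was 3.87-fold and 3.85-fold higher in macrophages and 12.0-fold and 10.1-fold higher in osteoclasts. These are single genes of the lists above, and the lists are not counted here for these classes. Of all features, 2.96% and 3.13% were past 2-fold higher in osteoblasts and 4.58% and 4.66% in cartilage. In macrophages 13.0% and 12.1% were, and in osteoclasts 14.1% and 13.9%.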
